A study of Mus musculus with 9 samples.

Results

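Dense clusters of intergenic regions were places outside genes, 15 to 50 kb from a gene end, where regions listed as divergently transcribed crowded together. A region was eligible when its centre lay outside every RefSeq protein-coding, lncRNA and transcribed pseudogene annotation, more than 15 kb and at most 50 kb from the nearest gene end. Neighbouring eligible regions with centres within 5 kb were joined, and groups of 4 or more were kept. This gave 13832 regions in 2192 clusters, out of 174289 regions in the series. A further 9141 regions at the same distance from genes stood in groups of 1 to 3 and are called sparser regions. Each cluster is named by its nearest annotated gene, which is a label of place and not a target. The rule reads positions and no counts. However, the positions come from a single list for the whole series, doxycycline libraries included. A region active only with doxycycline could thus be listed and count towards a cluster, so membership is not independent of the reads compared below.

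RNA polymerase II initiates at active enhancers in both directions and makes short, unstable RNAs, so paired divergent transcription away from genes is often read as a mark of regulatory DNA. In embryonic stem cells, groups of neighbouring enhancers bound by pluripotency factors are known around many genes that define the cell state. Firre is an X-linked gene whose long non-coding RNA stays in the nucleus.

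The libraries came from mouse embryonic stem cells that lack endogenous Firre and carry a Firre transgene inducible by doxycycline. All 3 groups shared that genotype: untreated cells (0 min), and cells at 15 min and at 30 min of 1 ng/μL doxycycline, with 3 libraries each. The cells grew in serum with LIF, the MEK inhibitor PD0325901 and the GSK3 inhibitor CHIR99021, and the nuclei used for the libraries included 1% Drosophila S2 nuclei. No sample used here combined doxycycline with cells without the transgene, so drug and transgene cannot be told apart, and the promoter of the transgene and the number of clones were not given in the sources used here. PRO-seq, the assay used, labels RNA in engaged polymerases, and the values are read counts in a window of 600 bp around each region on mm10.

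Reads in all regions came to between 3813365 and 5980366 per library, and 3 reads equal 0.5 to 0.787 CPM, the unit used below (reads scaled to a common library total with TMM factors). The Firre regions summed to 3.34 ± 1.37 CPM before doxycycline, to 295 ± 37.1 CPM after 15 min and to 785 ± 7.33 CPM after 30 min (SD, n = 3 each). End regions of 7 of 9 stem cell markers were listed, with summed levels of 1302 to 1423 CPM at 0 min, 1223 to 1421 CPM at 15 min and 1328 to 1413 CPM at 30 min. No region lay at the ends of Pou5f1 or Esrrb. Summed markers of fibroblasts, primitive endoderm and trophectoderm stayed at or below 4.72 CPM in every library. However, 5 of 8 fibroblast markers, Col1a2 among them, 3 of 6 primitive endoderm markers and 2 of 4 trophectoderm markers had no region. Summed markers of neuroectoderm lay between 13.1 and 20.4 CPM. The labels do not say whether replicates were separate cultures, so a p-value here reflects library-to-library spread that could be technical.

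Clusters were mostly small and compact. They held a median of 5 regions and at most 38, with 1512 of 2192 (68.98%) holding 4 to 6, 290 holding 10 or more and 18 holding 20 or more. The span ran from 1.38 to 49.4 kb with a median of 6.38 kb. Within a cluster the centres stood a median of 1.04 kb apart, so 5132 of the member windows (37.1%) overlapped a neighbouring window. Reads in shared bases may have been counted in both windows or in neither, since the counting settings were not given in the sources used here.

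**Figure D1:**
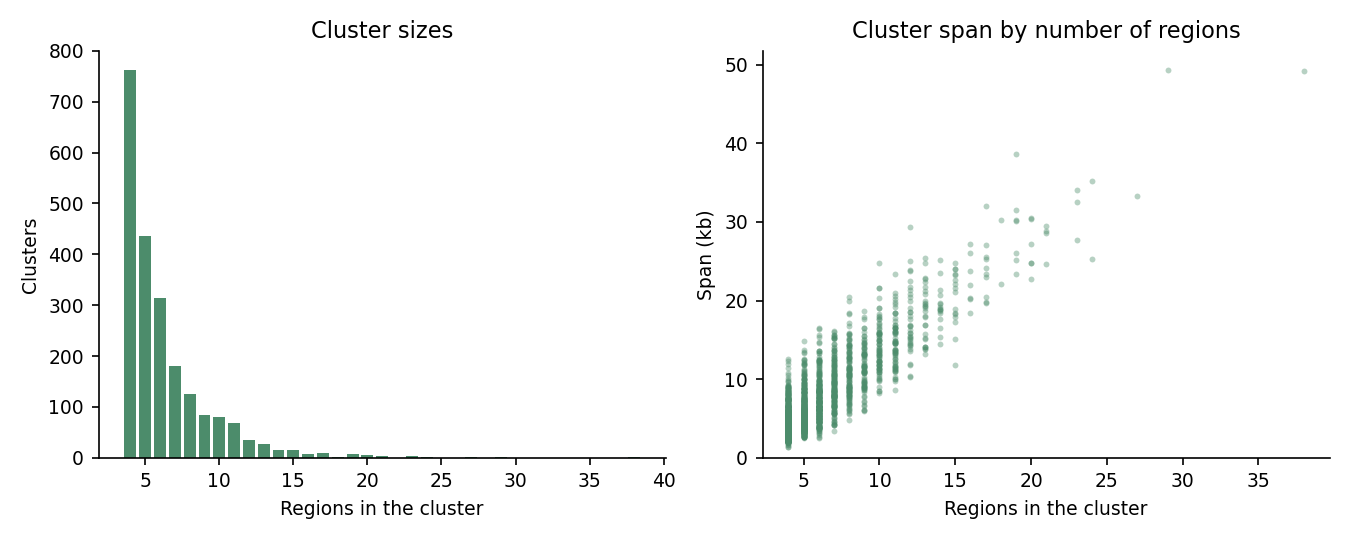
Left, the number of clusters (vertical axis) by the number of regions in the cluster. Right, the span of each cluster in kb against its number of regions, with 1 point per cluster. Small clusters dominate, with 762 clusters of exactly 4 regions, and the longest span is 49.4 kb.

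The nearest gene was protein-coding for 1216 clusters, a lncRNA for 948 and a transcribed pseudogene for 28, with 1977 different genes in all. Where the gene's strand was known, 855 clusters lay upstream and 842 downstream. The closest member lay a median of 20.6 kb from the gene end. Annotated pseudogenes that are not transcribed lay in 190 spans (8.67%), tRNA genes in 3 and miRNA genes in 5. Chromosome 17 contributed 1 cluster, and only 1128 regions were listed on it, against 4794 or more on every other autosome.

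The miRNA genes show what else these spans can hold, and their mature sequences are the sequences inside clusters that RefSeq (GRCm38.p6) supplied here. The seed, bases 2 to 8, is in capitals.
mmu-miR-8096: gGGCACGGuagcugaagagu
mmu-miR-6367: uCCCUGAGacccugguucagga
mmu-miR-680: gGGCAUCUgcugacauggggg
The 3 seeds differ. Entries matched 4 of the miRNA genes, and the fourth, Mir6378, had a hairpin alone. Mir8096 lies at chr1:85751948-85752074 in the 8-region cluster of A630001G21Rik, Mir6367 at chr16:91527443-91527544 in the 4-region cluster of Ifngr2, and Mir680-2 at chrX:144297790-144297899 in the 7-region cluster of Gm33235. A window overlapping Mir8096 held 17, 10 and 4 reads at 0 min, 24, 7 and 14 reads at 15 min and 21, 9 and 13 reads at 30 min, and these groups overlap. The window over Mir6367 held 0 to 2 reads per library, and none of these 3 clusters was called (edgeR adjusted p of 0.186, 0.475 and 0.487 at 15 min). PRO-seq reads mark transcription through the locus, not the mature miRNA.

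Most member regions were weakly transcribed. The median member had 20 reads over all 9 libraries, against 20 for sparser regions and 27 for all regions. The means were further apart, at 80.4 reads for members, 181.8 for sparser regions and 254.2 for all regions. No read fell in 136 members. The filter on low counts kept 2836 members (20.5%), against 25.49% of sparser regions. Just inside the size limit, clusters of 4 had a median of 21 reads per region, and just outside it, groups of 3 had 23.

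Reads were unevenly spread within a cluster. The strongest region held a median of 43.6% of its cluster's reads, with a range of 11.5% to 99.9%. Summed over its regions, the median cluster had 4.45 CPM.

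Of the clusters with most reads, 3 lay among copied genes and 2 had nearly all their reads in a single window. The highest total was at chr4:146261805-146275338, a 7-region cluster upstream of Gm13165 with 530, 626 and 664 CPM at 0 min, 568, 635 and 586 CPM at 15 min and 679, 628 and 676 CPM at 30 min. Its groups overlap. It and the clusters of Gm13238 and Gm26763 lie in a stretch of chromosome 4 with zinc finger genes and vomeronasal receptor pseudogenes, families known for near-identical copies. How reads matching several places were counted was not given in the sources used here, so the levels of these 3 clusters are uncertain. The Gm13238 cluster was called higher at 15 min (log2 0.37 ± 0.1, SE, adjusted p = 0.0239) and that of Gm26763 lower (log2 -0.45 ± 0.11, adjusted p = 0.0118), and without 0 min replicate 1 neither was called (adjusted p = 0.164 and 0.0667). The 4-region cluster upstream of Tcf7l1, which encodes a TCF/LEF repressor of stem cell genes, had 99.9% of its reads in 1 window. Its levels were 179, 488 and 563 CPM at 0 min, 79.5, 584 and 445 CPM at 15 min and 403, 362 and 572 CPM at 30 min. The Gm33781 cluster on chromosome 10, with 99.1% of its reads in 1 window, had 220, 519 and 727 CPM at 0 min, 84, 397 and 665 CPM at 15 min and 595, 461 and 367 CPM at 30 min. In both, replicate 1 was the lowest library at 0 min and at 15 min, and the times overlap.

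The most crowded cluster, 38 regions over 49.2 kb next to Galnt1, an enzyme of O-linked glycosylation, had 57.2, 71.4 and 52.2 CPM at 0 min, 62.3, 59.9 and 44.6 CPM at 15 min and 63.7, 65.1 and 59.5 CPM at 30 min. Its groups overlap and it was not called (adjusted p = 0.686 at 15 min and 0.896 at 30 min). The 29-region cluster upstream of 1110002J07Rik had 48.8, 54.3 and 56.1 CPM at 0 min, 70.7, 62.4 and 57.9 CPM at 15 min and 66.6, 58.9 and 62.6 CPM at 30 min. Every doxycycline library was above every untreated library there, yet the change did not pass (log2 0.27 ± 0.13, adjusted p = 0.193 at 15 min). Of the 8 clusters with most regions, the cluster upstream of the kinase gene Wnk3 on the X was the only one called. Its 24 regions summed to 15.5, 21.6 and 16.3 CPM at 0 min, 27.2, 34.4 and 28.9 CPM at 15 min and 33.6, 29.3 and 25 CPM at 30 min, without overlap between doxycycline and untreated libraries. The log2 changes were 0.76 ± 0.18 at 15 min (adjusted p = 0.00731) and 0.72 ± 0.18 at 30 min (adjusted p = 0.0312), and without 0 min replicate 1 the adjusted p values were 0.0587 and 0.197. The call was kept in 7 of 9 fits without 1 library at 15 min and in 4 of 9 at 30 min.

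At 15 min, changes in the clusters were mostly rises. When each cluster's regions were summed and tested with edgeR beside all other regions, 1818 clusters had enough reads, of which 146 (8.03%) rose and 15 (0.825%) fell. Over all 52877 units tested in that fit, 4.44% were higher and 4.35% lower. The median log2 change was 0.235 for clusters and 0.0163 for all units. The filter on low counts asked for enough reads in any 3 libraries. Weak units could therefore pass through the times where they were high, and most libraries had doxycycline. In the fit of single regions 122 of 2836 tested members rose (4.3%) and 25 fell (0.882%), beside 4.29% higher and 3.96% lower over all 54299 regions tested. Leaving out 1 library cut the 161 calls on clusters to 67 without 0 min replicate 1, 100 without 0 min replicate 3, 74 without 15 min replicate 1 and 63 without 15 min replicate 2. In bulk libraries, a change in the number of cells with an active region and a change in transcription per cell cannot be told apart.

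At 30 min against 0 min fewer clusters passed, again mostly higher. On summed counts 62 of 1818 clusters rose (3.41%) and 6 fell (0.33%), beside 1.35% higher and 0.556% lower over all units. Of single members 46 rose (1.62%) and 6 fell (0.212%), beside 1.24% higher and 0.497% lower over all regions. The 68 calls on clusters became 16 without 0 min replicate 1, 40 without 0 min replicate 3, and 29, 24 and 17 without 30 min replicates 1, 2 and 3. The 15 and 30 min comparisons share the untreated libraries.

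Between 30 and 15 min no member and no cluster was called by edgeR. At an unadjusted p under 0.05 there were 160 of 2836 members and 101 of 1818 clusters, and DESeq2 called 1 member and 0 clusters. Over all regions 0.704% were called in either direction in that comparison, and 0.728% of all units. The median log2 change of clusters between these times was -0.0421.

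**Figure D2:**
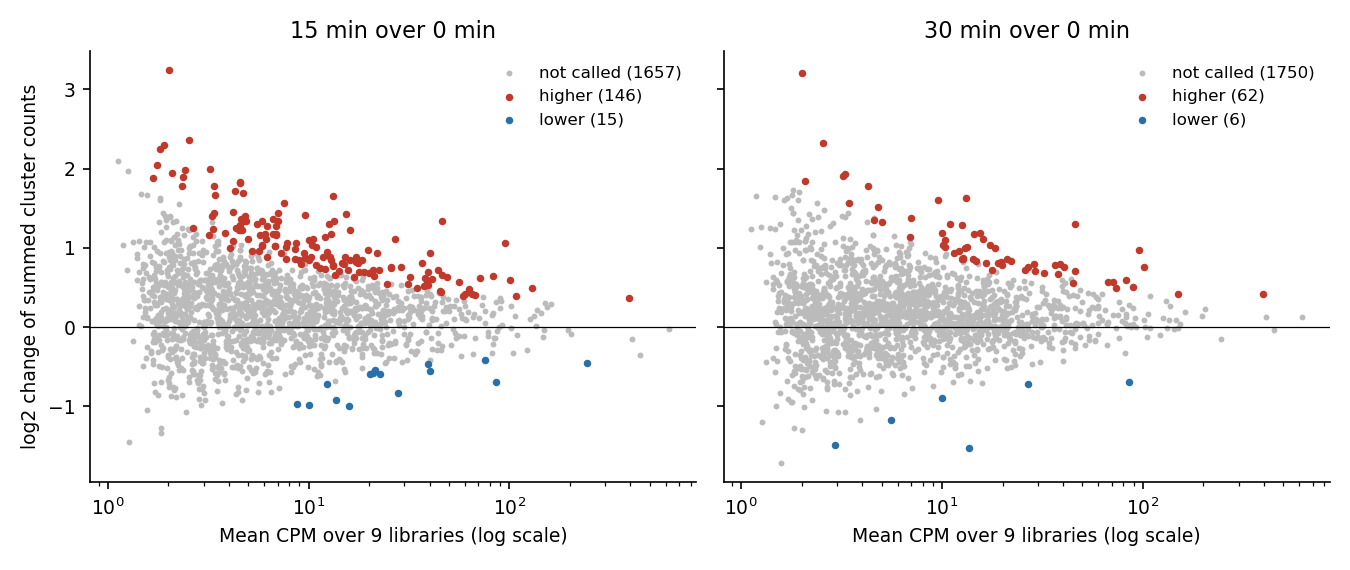
Log2 change of summed cluster counts at 15 min over 0 min (left) and 30 min over 0 min (right) against the mean CPM over 9 libraries on a log scale, with 1 point per tested cluster. Clusters called higher outnumber those called lower in both panels, 146 against 15 and 62 against 6.

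The number of rises depended on what the libraries were scaled to. Gene end regions had a median log2 change of -0.164 at 15 min in the fit of single regions. Scaling on gene ends alone moved the median of all regions to 0.187 at 15 min and 0.107 at 30 min, against 0.0248 and -0.00102 with all regions. Under that scaling 248 clusters were higher and 5 lower at 15 min, and 77 higher and 2 lower at 30 min. The share of higher among called members went up by over 10 points at 15 min, 95% against 83%.

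The share of a library's reads needs no scaling factor. Clusters took 2.27%, 2.43% and 2.37% of the region reads of a library at 0 min, 2.56%, 2.72% and 2.45% at 15 min and 2.66%, 2.53% and 2.54% at 30 min. Every doxycycline library lay above every untreated one. The mean difference was 0.225 points at 15 min and 0.224 points at 30 min, with an exact two-sided permutation p = 0.1 each, the smallest that 3 against 3 libraries allow. With both doxycycline times together the difference was 0.224 points (exact permutation p = 0.0238, the smallest that 6 against 3 allow). It was 0.165 points (exact permutation p = 0.0476) with windows that overlap no other. Without any 1 untreated library it was 0.183 to 0.26 points (exact permutation p = 0.0714, the smallest that the remaining libraries allow). Sparser regions also took a larger share with doxycycline, 3.696% to 4.086% against 3.385% to 3.611% in untreated libraries. Their difference over both times was 0.3685 points (exact permutation p = 0.0238), so the rise in share was not particular to clusters. These tests of shares were added after the counts had been seen. The share of reads at gene ends, which makes up part of the rest of each library, was 45 ± 2.27% at 15 min and 45.2 ± 0.744% at 30 min, against 47.7 ± 1.47% at 0 min (SD, n = 3 each), and its part in the result was not tested.

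No difference between the clusters and sparser regions at the same distance passed a test. The log2 ratio of cluster reads to sparser reads was -0.576, -0.574 and -0.563 at 0 min, -0.608, -0.585 and -0.595 at 15 min and -0.527, -0.561 and -0.631 at 30 min. The groups at 15 and 0 min do not overlap, with the clusters slightly lower relative to sparser regions at 15 min (difference -0.0248, exact permutation p = 0.1, the smallest possible). At 30 min they overlap (difference -0.0017, exact permutation p = 1), and over both times the difference was -0.0132 (exact permutation p = 0.571). Joining regions within 3 kb instead turned the sign (0.0433, 0.0243 and 0.0338 at 15 min, 30 min and both, exact permutation p = 0.2, 0.5 and 0.214). Among groups of 1 to 3 regions 7.74% rose and 1.45% fell at 15 min, with a median log2 change of 0.211. In the fit of single regions, 6.7% of tested sparser regions rose and 1.37% fell, beside 4.3% and 0.882% of members. Regions outside genes at other distances, beyond 1 kb from a gene end, gave 7.2% and 1.51%. The median log2 changes were 0.204 for sparser regions, 0.219 for members and 0.206 for these other regions. None of these shares was compared by a test.

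**Figure D3:**
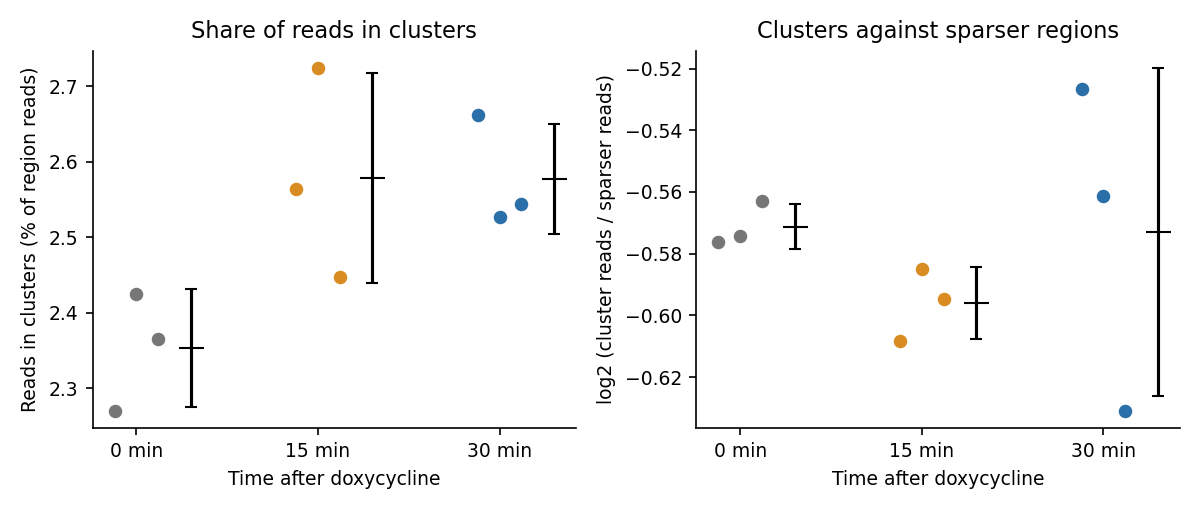
Left, percent of each library's region reads that fell in clusters. Right, log2 ratio of reads in clusters to reads in sparser regions. Points are libraries and bars are the mean and SD of 3 at each time. The share lies between 2.27% and 2.43% at 0 min and at 2.45% or more at both doxycycline times, while the ratio at 30 min spans the values at 0 min.

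Called shares were larger where reads were many. With the tested clusters cut into 4 equal bins of mean CPM, 2.42% of the lowest bin were higher at 15 min, and in the highest bin 12.7% were higher and 2.64% lower. The median log2 change ran the other way, 0.287 in the lowest bin and 0.178 in the highest. Weak clusters could pass the filter through the times where they were high, and the part of this in these medians was not tested. By the nearest gene's type the shares called higher at 15 min were 8.74% for protein-coding and 7.26% for lncRNA genes. Upstream and downstream clusters gave 7.38% and 8.09%. On the X chromosome 7 of 95 tested clusters rose at 15 min and 7 at 30 min and 0 fell by edgeR or DESeq2 (1 lower at an unadjusted p under 0.05 at each time), beside 139 higher and 15 lower of 1723 elsewhere at 15 min and 55 higher and 6 lower at 30 min. These differences between strata were not tested.

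The log2 changes of regions in a cluster often differed in sign. Of 425 clusters with at least 3 tested regions, 137 had every log2 change above 0 at 15 min, 31 every change below 0 and 257 a mixture. Of all tested members 65.6% had a log2 change above 0 at 15 min, beside 52% of all tested regions. These signs include changes that were not called, and agreement within clusters beyond that share was not tested. Of the 161 clusters called at 15 min, 82 had a called member region, and 21 had no region with enough reads to be tested alone.

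Beyond the gene lists, the changed clusters described here were taken for large changes with groups that do not overlap, so neither feature is evidence of its own. The lowest adjusted p at 15 min among all clusters was that of Purg, a gene for a purine-rich element binding protein, at chr8:33442435-33457377. Its 8 regions, the nearest 25.3 kb from the gene, summed to 20, 25.4 and 24.1 CPM at 0 min, 57.3, 61.2 and 57.2 CPM at 15 min and 57.3, 57.1 and 55.5 CPM at 30 min. All doxycycline libraries lay far above all untreated ones, and the 2 doxycycline times overlap. The log2 change was 1.34 ± 0.14 at 15 min (adjusted p = 5.83e-07) and 1.29 ± 0.14 at 30 min (adjusted p = 3.48e-06), and both were called under each of 18 alternatives. The called windows lay at the end nearer Purg, where 4 consecutive windows were called at both times, with mean levels at 15 min of 16.1, 17.4, 10.9 and 9.57 CPM, against 6.76, 7.44, 3.18 and 2.7 CPM at 0 min. The 3 windows at the far end had under 1 CPM on average at each time. The end region of Purg itself had 10.1 ± 3.96 CPM at 15 min, against 13.1 ± 2.8 CPM at 0 min, and was not called (adjusted p = 0.378).

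Among the largest rises were 2 X-linked clusters. That of Stag2, a cohesin subunit gene, held 7 regions with 0.53, 3.38 and 2.1 CPM at 0 min, 6.67, 8.37 and 5.31 CPM at 15 min and 6.57, 4.85 and 3.33 CPM at 30 min. The untreated libraries lay below all 15 min libraries, with 0 min replicate 1 the lowest. Its log2 change was 1.83 ± 0.41 at 15 min (adjusted p = 0.00591, but 0.0577 without 0 min replicate 1 and 0.413 with overlapping windows left out). The 5-region cluster upstream of Samt3 had 2.3, 2.7 and 1.57 CPM at 0 min, 6.33, 6.47 and 4.82 CPM at 15 min and 6.02, 7.09 and 5.95 CPM at 30 min. Every doxycycline library was above the untreated ones, with a log2 change of 1.41 ± 0.32 at 15 min (adjusted p = 0.00677) and 1.51 ± 0.32 at 30 min (adjusted p = 0.0127, but 0.074 without 0 min replicate 1).

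A 6-region cluster 16.3 kb from Myc, the gene of a growth-promoting transcription factor, lay at chr15:62006317-62015492. It had 4.59, 6.53 and 7.08 CPM at 0 min, 11.7, 12.9 and 11.6 CPM at 15 min and 14.6, 14.9 and 14.5 CPM at 30 min, and the 3 times do not overlap. The log2 changes were 1.01 ± 0.23 at 15 min (adjusted p = 0.00603, and 0.063 without 0 min replicate 1) and 1.3 ± 0.23 at 30 min (adjusted p = 0.00308). The step between 30 and 15 min was not called (log2 0.28, adjusted p = 0.707). The window 16.3 kb from Myc was nearly empty, with a mean of 0.0555 CPM over all libraries. The strongest window, 19.5 kb from Myc, held 45.4% of the reads. The end region of Myc, whose mean was 16.6 CPM in untreated cells, 19 CPM after 15 min and 21.3 CPM after 30 min, was not called at either time.

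Other large rises at 15 min were near Snx10, a sorting nexin (log2 1.82 ± 0.34, adjusted p = 0.00116), near the RNA-binding repressor gene Nanos1 (1.56 ± 0.33, 0.00328), and near Gm39597 (1.69 ± 0.33, 0.00193), Gm31358 (1.44 ± 0.29, 0.00208) and Gm46977 (1.42 ± 0.28, 0.00216). The Gm31358 and Gm46977 clusters were also called at 30 min, with log2 1.38 ± 0.29 (adjusted p = 0.0112) and 1.61 ± 0.28 (0.00298), as was a cluster near Gm42346 on chromosome 4 (1.29 ± 0.22, 0.00298). The Gm42346 cluster, at chr4:145374469-145379146, lies before that of Gm26763, at chr4:145745225-145751686. Whether copied sequence affects the reads of the Gm42346 cluster was not tested. The Gm31358 call at 30 min was lost without 0 min replicate 1 (adjusted p = 0.0509) or 30 min replicate 3, and with overlapping windows left out it was lost at both times (adjusted p = 0.106 at 15 min and 0.24 at 30 min). A cluster near Hs3st1, a heparan sulfate sulfotransferase, was called at 30 min alone (log2 1.33 ± 0.34, adjusted p = 0.0419), and that call was lost without any 1 of 6 libraries.

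**Figure D4:**
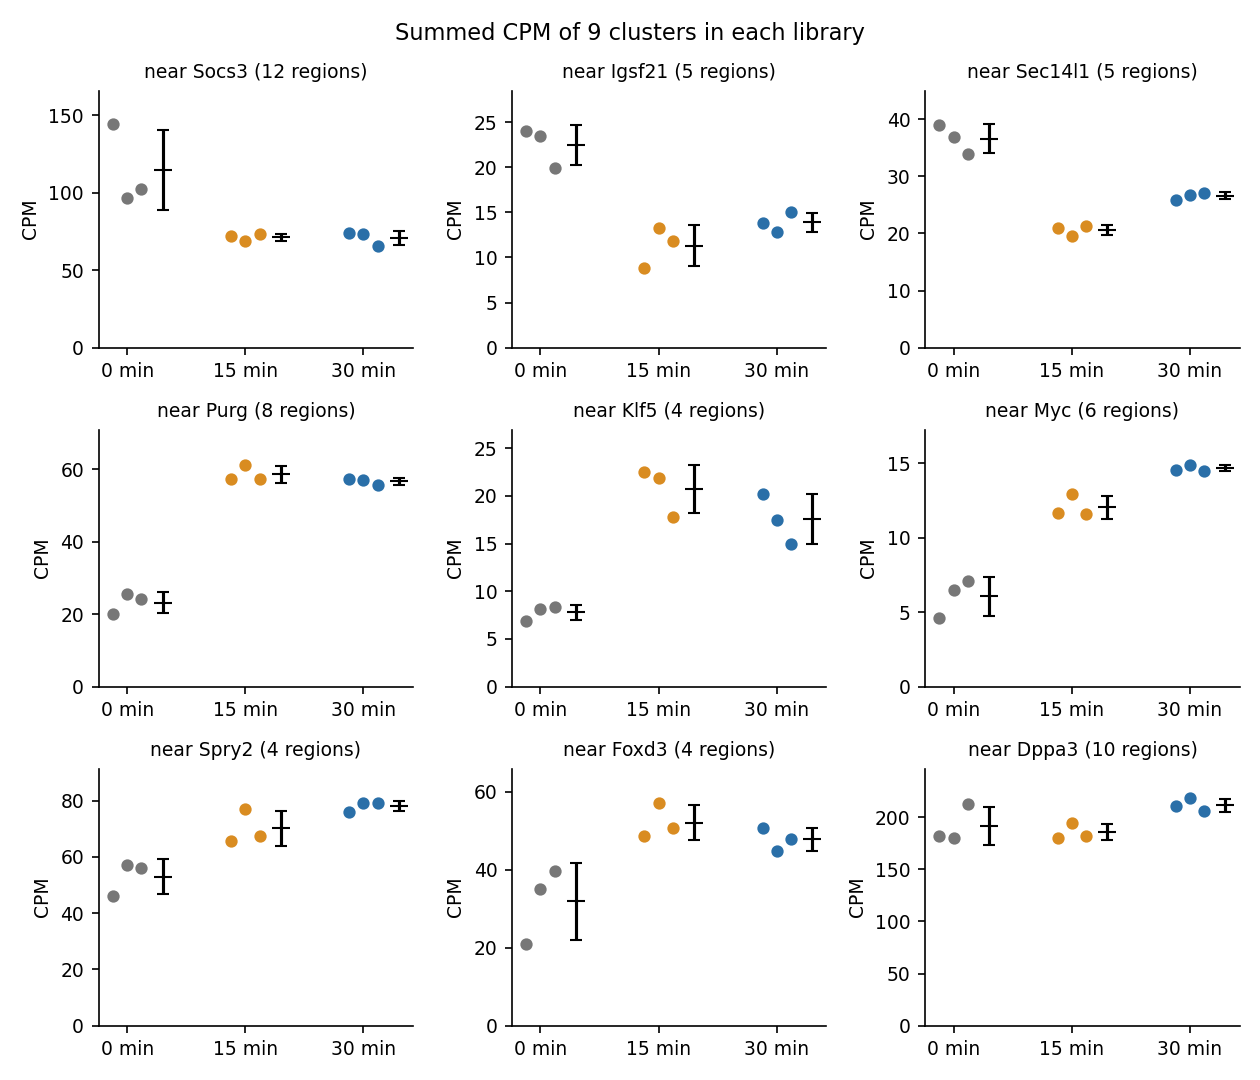
Summed CPM of 9 clusters in each library at 0, 15 and 30 min; points are libraries, bars the mean and SD of 3, and each panel has its own vertical axis starting at 0. The clusters of Socs3, Igsf21 and Sec14l1 (top row) are lower at 15 min than at 0 min, those of Purg, Klf5 and Myc (middle row) are higher at both times, and the cluster between Dppa3 and Nanog (bottom right) stays between 180 and 218 CPM.

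Apart from that of Gm26763, the cluster with most reads among those that fell lay downstream of Socs3, the feedback inhibitor of LIF-JAK-STAT3 signalling, at chr11:117928914-117950188. Its 12 regions summed to 144, 96.8 and 102 CPM at 0 min, 71.8, 68.8 and 73.1 CPM at 15 min and 73.7, 73.3 and 65.7 CPM at 30 min. All untreated libraries lay above all doxycycline libraries, with 0 min replicate 1 the highest. The log2 change was -0.69 ± 0.13 at both times (adjusted p = 0.00167 at 15 min and 0.00627 at 30 min). Without 0 min replicate 1 it was -0.49 at both times, with adjusted p = 0.0262 at 15 min and 0.086 at 30 min. The call at 30 min was also lost without 30 min replicate 3. A run of 3 windows carried most of the reads and of the fall: they had means of 22.4, 14.7 and 16.9 CPM at 15 min, against 38.9, 25 and 31.4 CPM at 0 min, and were each called at 15 min. These 3 windows are nearest to Gm11725, 20.8 to 25.5 kb away, rather than to Socs3, and each lost its call at 15 min without 0 min replicate 1. The other 5 tested windows of the cluster had 1.7 to 5.09 CPM at 0 min and were not called. No region was listed at an end of Socs3, so the gene itself could not be set beside its cluster.

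**Figure D5:**
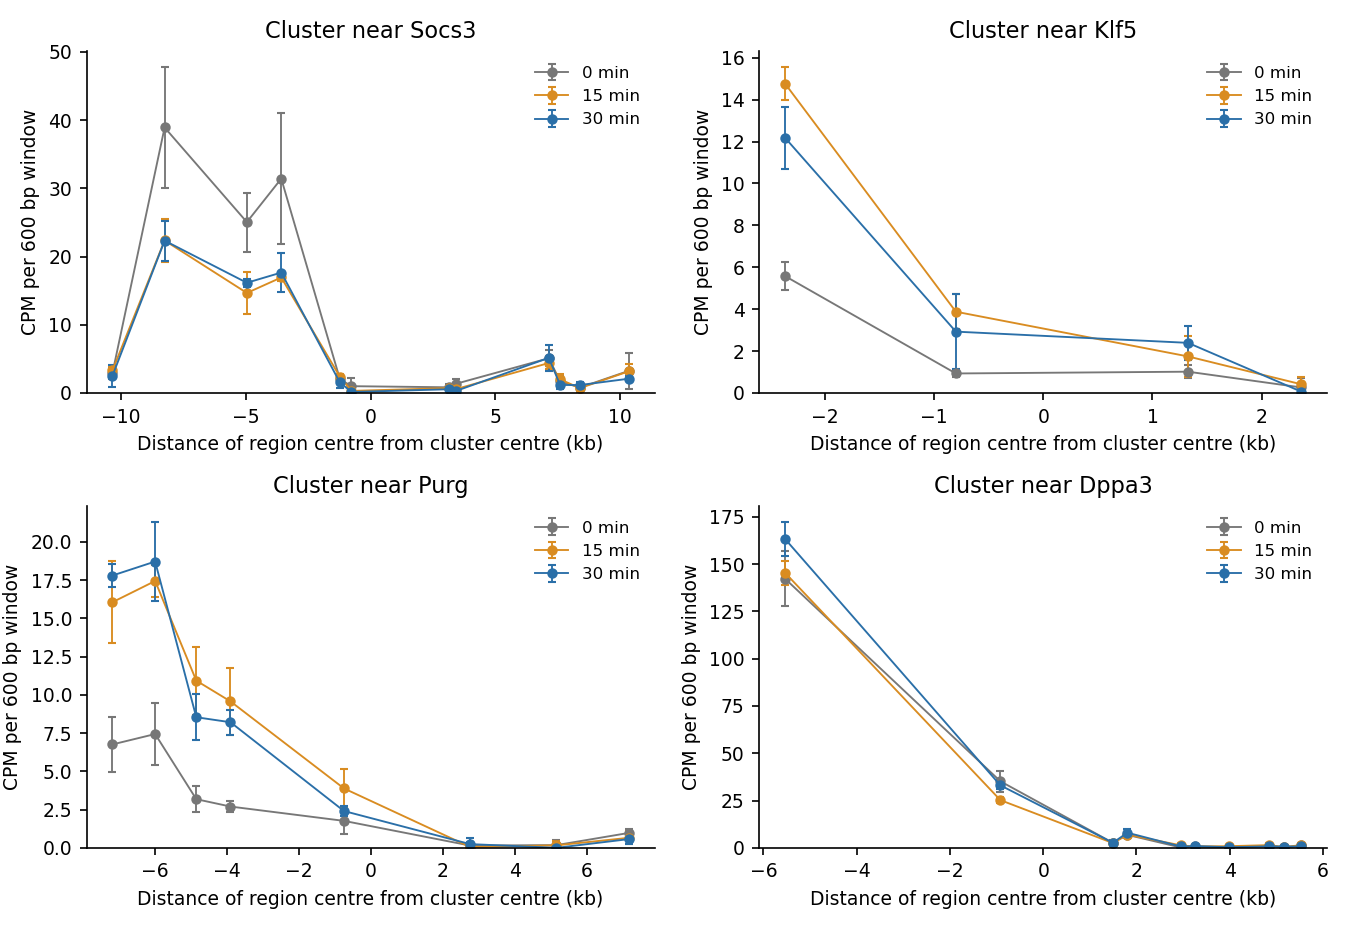
Mean CPM of each 600 bp window (vertical axis, bars are SD of 3 libraries) by the distance in kb of its centre from the centre of its cluster, at 0, 15 and 30 min. In the Socs3 cluster 3 windows carry most reads and are lower at 15 and 30 min. In the Klf5 and Purg clusters the strongest windows are higher at both times, and in the Dppa3 cluster the strongest window, at 142 CPM at 0 min, keeps the 3 times close together.

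The RefSeq promoters of Socs3 and of the genes beside 2 clusters that rose, Spry2 and Foxd3, are shown because these clusters flank regulators whose promoters the reference holds (GRCm38.p6, 250 bases before to 50 after the annotated start, 5′ to 3′ on the gene's strand). Capitals mark TTCNNNGAA, the core letters of a STAT site, which reads the same on both strands.
Socs3 (chr11:117969317-117969616, minus strand): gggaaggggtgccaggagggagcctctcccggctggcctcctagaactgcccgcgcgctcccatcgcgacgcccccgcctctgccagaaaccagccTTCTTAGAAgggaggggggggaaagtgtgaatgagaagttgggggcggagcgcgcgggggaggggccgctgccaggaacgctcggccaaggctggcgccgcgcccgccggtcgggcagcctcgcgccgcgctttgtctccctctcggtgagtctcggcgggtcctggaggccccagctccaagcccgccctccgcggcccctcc
Spry2 (chr14:105896770-105897069, minus strand): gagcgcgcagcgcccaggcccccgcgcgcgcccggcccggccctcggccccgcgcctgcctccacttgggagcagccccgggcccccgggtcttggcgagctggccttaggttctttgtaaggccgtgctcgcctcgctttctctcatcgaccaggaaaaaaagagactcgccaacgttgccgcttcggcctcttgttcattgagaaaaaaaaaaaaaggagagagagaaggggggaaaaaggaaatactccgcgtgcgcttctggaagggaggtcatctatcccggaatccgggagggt
Foxd3 (chr4:99656049-99656348, plus strand): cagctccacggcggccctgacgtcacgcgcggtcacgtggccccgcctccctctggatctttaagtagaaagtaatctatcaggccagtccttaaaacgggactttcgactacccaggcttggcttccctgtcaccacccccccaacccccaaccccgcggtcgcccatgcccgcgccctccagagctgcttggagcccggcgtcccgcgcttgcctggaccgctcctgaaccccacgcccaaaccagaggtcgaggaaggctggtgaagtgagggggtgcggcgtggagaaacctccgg
The Socs3 promoter held 1 match, TTCTTAGAA, and the other windows none. At least 1 match to TTCNNNGAA was present in 8.3% of 32851 promoters of this length. Whether the cluster regions hold such letters was not analysed here.

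Of 25 genes listed as signalling feedback genes, Socs3 among them, 6 were the nearest gene of a cluster, with 9 clusters of which 8 were tested. At 15 min 1 rose and 1 fell, and the same numbers passed at 30 min. Over all tested clusters 8.03% rose and 0.825% fell at 15 min, and 3.41% and 0.33% at 30 min. Over all units the shares were 4.44% and 4.35% at 15 min, and 1.35% and 0.556% at 30 min. This list's median log2 change was 0.121 at 15 min and 0.167 at 30 min. It was 0.235 and 0.161 for all tested clusters and 0.0163 and -0.002 for all units. The cluster that rose lay 22.7 kb downstream of Spry2, a feedback inhibitor of receptor tyrosine kinase signalling, at chr14:105859063-105869594. Its 4 regions summed to 45.9, 57.2 and 55.9 CPM at 0 min, 65.7, 77 and 67.5 CPM at 15 min and 76.1, 79.2 and 79 CPM at 30 min, and every doxycycline library was above the untreated ones. The log2 changes were 0.41 ± 0.12 at 15 min (adjusted p = 0.0409) and 0.56 ± 0.12 at 30 min (adjusted p = 0.0167). Without 0 min replicate 1 they were 0.3 (adjusted p = 0.222) and 0.46 (adjusted p = 0.152), and over all fits without 1 library the call was kept in 2 of 9 at 15 min and 5 of 9 at 30 min. The Spry2 end region had 112 ± 19.1 CPM at 15 min, against 116 ± 19.7 CPM at 0 min. Clusters of Etv5, an ETS factor induced by ERK, of Spry4, of the WNT target Sp5 and of the TGF-beta ligand gene Nodal were not called at either time, with log2 changes between -0.45 and 0.6 at 15 min.

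Of 35 stem cell identity genes, 10 were the nearest gene of 16 clusters, of which 13 were tested. At 15 min 2 rose and 0 fell, and at 30 min 1 rose and 0 fell by edgeR, with the same counts by DESeq2 and, at an unadjusted p under 0.05, 6 higher and 0 lower at each time. The shares higher were 8.03% and 3.41% over all clusters and 4.44% and 1.35% over all units at these times. The list's median log2 change was 0.439 at 15 min and 0.429 at 30 min, beside 0.235 and 0.161 for all clusters and 0.0163 and -0.002 for all units. The largest rise was 18.5 kb from Klf5, a Krüppel-like factor of naive stem cells, at chr14:99275168-99280491. Its 4 regions summed to 6.89, 8.11 and 8.4 CPM at 0 min, 22.5, 21.9 and 17.8 CPM at 15 min and 20.2, 17.5 and 15 CPM at 30 min. Every doxycycline library stood above every untreated one. The log2 changes were 1.43 ± 0.21 (adjusted p = 7.44e-05) at 15 min and 1.19 ± 0.21 at 30 min (adjusted p = 0.00324), called under each of 18 alternatives. The window 18.5 kb from Klf5 was nearly empty, with a mean of 0.245 CPM over all libraries. The strongest window, nearest to Pibf1 at 20.6 kb, held 70.1% of the reads and had 14.8 CPM at 15 min, against 5.58 CPM at 0 min. The Klf5 end region, at 25.1 ± 6.7 CPM at 15 min against 27.7 ± 10.1 CPM at 0 min, was not called.

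The other rise in that list was 34.2 kb upstream of Tcl1, a coactivator of AKT, at chr12:105256680-105261474. It had 4.59, 3.38 and 1.84 CPM at 0 min, 8.5, 8.37 and 8.92 CPM at 15 min and 6.75, 4.47 and 6.19 CPM at 30 min. The 15 min libraries were above all others, and 30 min overlapped 0 min. The log2 change was 1.34 ± 0.3 at 15 min (adjusted p = 0.00604) and 0.77 ± 0.32 at 30 min (adjusted p = 0.228).

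The strongest cluster of the list did not pass. It held 10 regions at chr6:122662694-122674360, 32.7 kb from Dppa3, the maternal factor Stella, and 33.1 kb from Nanog, the homeodomain pluripotency factor. It summed to 181, 180 and 212 CPM at 0 min, 180, 194 and 182 CPM at 15 min and 211, 218 and 206 CPM at 30 min. The groups overlap, and the log2 change was -0.04 ± 0.1 at 15 min (adjusted p = 0.845) and 0.15 ± 0.1 at 30 min (adjusted p = 0.518). A single window held 76.7% of its reads. The weaker 5-region cluster nearer to Dppa3 had 2.12, 4.5 and 1.57 CPM at 0 min, 5.5, 6.66 and 4.58 CPM at 15 min and 4.56, 5.78 and 5.95 CPM at 30 min. Its libraries did not overlap between doxycycline and untreated cells, but its log2 change of 1.03 ± 0.35 at 15 min did not pass (adjusted p = 0.0657).

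No other cluster of the list was called. The stronger of 2 clusters downstream of the nuclear receptor gene Esrrb had means of 12.2 CPM before doxycycline, 12.4 CPM after 15 min and 13 CPM after 30 min (log2 0.02 ± 0.21 at 15 min). Both clusters of Nr5a2, another nuclear receptor gene, and the other Tcl1 cluster had log2 changes between 0.13 and 0.35 at 15 min. The 10-region cluster downstream of Klf4, another Krüppel-like factor, had a log2 change of 0.51 ± 0.3 at 15 min (adjusted p = 0.31). Those of Zfp42, the Rex1 gene, changed by 0.44 ± 0.19 and 0.59 ± 0.26, and those of Tet2, a 5-methylcytosine dioxygenase, by 0.25 ± 0.24 and 1.13 ± 0.51, none of them called by edgeR at either time. A cluster near Tfcp2l1, 1 near Dppa4 and 1 of the Esrrb clusters had too few reads to be tested.

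Of 25 developmental regulators, 3 had 4 clusters, all tested. At each time 1 rose and 0 fell by edgeR and by DESeq2 (2 higher and 0 lower at an unadjusted p under 0.05), each beside Foxd3, a forkhead factor of stem cells and neural crest, while the clusters of Hoxb1 and Dnmt3b were not called. The shares higher over all clusters were 8.03% at 15 min and 3.41% at 30 min. The Foxd3 cluster upstream, 4 regions at chr4:99632031-99641148, had 20.8, 35.1 and 39.6 CPM at 0 min, 48.5, 57.1 and 50.6 CPM at 15 min and 50.7, 44.7 and 47.9 CPM at 30 min. The untreated libraries were all lower, replicate 1 the lowest. The log2 change was 0.73 ± 0.17 at 15 min (adjusted p = 0.00804, and 0.0786 without 0 min replicate 1) and 0.6 ± 0.17 at 30 min (adjusted p = 0.0664). The cluster downstream, 9 regions at chr4:99673446-99680529, changed by 0.62 ± 0.2 at 15 min (adjusted p = 0.0574) and by 0.81 ± 0.2 at 30 min (adjusted p = 0.0336, kept in 4 of 9 fits without 1 library). The Foxd3 end region between them was not called (log2 0.16 ± 0.23 at 15 min).

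Among the other clusters that fell at 15 min, those of Sec14l1 and Igsf21 had the lowest adjusted p. The 5-region cluster downstream of Sec14l1, a Sec14-like lipid-binding protein, had 39, 36.9 and 33.8 CPM at 0 min, 21, 19.6 and 21.2 CPM at 15 min and 25.9, 26.7 and 27.1 CPM at 30 min, with no overlap between any times. Its log2 change was -0.83 ± 0.15 at 15 min (adjusted p = 0.00086) and -0.47 ± 0.15 at 30 min (adjusted p = 0.101), and 94.1% of its reads lay in 1 window. The cluster downstream of Igsf21, a synaptic immunoglobulin-domain protein, at chr4:140001933-140005279 had 24, 23.4 and 19.9 CPM at 0 min, 8.83, 13.3 and 11.8 CPM at 15 min and 13.9, 12.9 and 15 CPM at 30 min. All untreated libraries were higher, and the log2 change was -1 ± 0.2 at 15 min (adjusted p = 0.00184) and -0.7 ± 0.19 at 30 min (adjusted p = 0.0547). In that cluster 4 of 5 windows overlap another, and with overlapping windows left out the change at 15 min was not called (adjusted p = 0.307).

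Clusters near Gm31573, Gm33033, Gm36416, Gm4872 and 1700108I11Rik also fell at 15 min, with log2 changes between -0.98 and -0.59. The call on Gm33033, Gm4872 and 1700108I11Rik was lost with scaling on gene ends (adjusted p = 0.068, 0.0946 and 0.149). Of 9 fits without 1 library the call at 15 min was kept in 7 for Gm31573 and for Gm33033, in 4 for Gm4872, in 5 for 1700108I11Rik and in 9 for Gm36416, whose adjusted p was 0.0617 with overlapping windows left out. At 30 min the clusters of Gm31573, Gm30888 and Zcchc14 were lower, with log2 changes of -0.89 ± 0.24, -0.72 ± 0.17 and -1.17 ± 0.28, and each of these calls was lost in at least 4 of 9 fits without 1 library.

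Changes in clusters were set beside those at the end of the nearest gene. A tested end region stood beside 861 tested clusters, and the log2 changes of cluster and gene end correlated weakly across these pairs at 15 min (Pearson r = 0.185, Spearman rho = 0.206) and at 30 min (r = 0.117, rho = 0.127); the pairs share libraries and scaling. The median log2 change at 15 min was 0.23 for these clusters and -0.132 for the gene ends. Of 81 such clusters called at 15 min 4 had a called gene end, and of 41 called at 30 min 0 had, by edgeR and by DESeq2, with 5 at an unadjusted p under 0.05. Over all tested gene ends 1.81% were higher and 8.04% lower at 15 min, and 0.493% higher and 0.78% lower at 30 min. The 4 pairs were 1190028D05Rik, higher in the cluster and at the end (log2 0.7 ± 0.22 and 1.73 ± 0.43), H4bc24, a histone H4 gene, likewise (0.96 ± 0.3 and 0.31 ± 0.09), and Zcchc2 and Gm5141, where the cluster rose (0.79 ± 0.2 and 1.34 ± 0.32) and the gene end fell (-0.66 ± 0.16 and -0.75 ± 0.21). H4bc24 has near-identical copies, so its reads are uncertain.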

How the data were processed

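The authors deposited raw read counts of 9 PRO-seq libraries in 174289 windows of 600 bp. The other values deposited are coordinates (mm10) of the regions. HISAT2, featureCounts and version 1.26.0 of DESeq2 were named per the submitters' processing notes, with settings and counted strand not given in the sources used here. Members and gene lists were chosen with earlier results of these data known.

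Regions were placed with the RefSeq genes of GRCm38.p6 (35118 genes of the 3 types used), whose table has no strand; the strand was taken from RefSeq promoters where present. A gene end is within 1 kb of either annotated end.

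edgeR 4.0.16 in R 4.3.3 fitted a quasi-likelihood model to all 9 libraries with time as a factor, on the whole table of regions (54299 of 174289 kept by filterByExpr) and on a table in which eligible regions were summed by group (52877 of 158192 kept). TMM factors lay between 0.971 and 1.02, and CPM values carry them. Benjamini-Hochberg adjustment covered each whole table, with calls at 0.05. Each log2 change divided by the square root of its F gave the SE. The fits were tested on simulated data. Single values per library were compared by exact permutation tests, two-sided.

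The rule for names took the 8 clusters with most regions, the 8 with most reads, every cluster of the 3 gene lists and, per comparison, the 8 higher and 8 lower called clusters (and single regions) of largest change with a mean of at least 20 counts and groups that do not overlap. Clusters with a called gene end, and those that hold a miRNA, were named after their values were seen. A result that the rule took is not reported here. Alternatives tried were size factors of DESeq2, no TMM (library size alone), TMM from gene ends, no filter, 20 counts in 3 libraries, the 2 times compared alone, a replicate block, Wald tests in DESeq2 1.42.0, windows without overlap, each library left out, joining within 3 or 10 kb and clusters of 6 or more. Leaving out clusters with pseudogenes or with nearly all reads in 1 region was chosen after seeing the data. Replicate pairs of a group differed by more than sampling noise (chi-square per degree of freedom 2.17 to 3.53).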

Additional observations from a re-analysis of the deposited data

How the results depend on the processing

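Direction held for every named cluster and region under the alternatives run where it was called: of 2998 comparisons with the reported value 2768 kept direction and side of the threshold, 186 lost the call, 44 gained it and 0 reversed. Members called at 15 min numbered 260 with TMM from gene ends, 95 by DESeq2, 88 with regions joined within 3 kb and 91 in clusters of 6 or more, against 147, and 64 to 213 with 1 library left out. At 30 min they numbered 80 with regions joined within 10 kb, against 52, and 11 to 72 with 1 library left out. Between 30 and 15 min, against 0, they numbered 1 by library size alone, 2 without a filter, 1 by DESeq2, 2 with windows without overlap, 3 with regions joined within 10 kb, and 0 to 4 with 1 library left out. Clusters called at 15 min numbered 253 with TMM from gene ends and 90 for 6 or more regions, against 161, and 63 to 189 with 1 library left out. At 30 min they numbered 39 for 6 or more regions, against 68, and 16 to 84 with 1 library left out. Between 30 and 15 min, against 0, there was 1 without a filter, 1 with regions joined within 10 kb, and 0 to 1 with 1 library left out. Fewer libraries, fewer regions and another base of scaling are built into these alternatives; otherwise the cause was not tested. The ratio of cluster to sparser reads had p of 0.1 or more throughout, which for 3 against 3 libraries is fixed by the design and shows no stability; with 1 library left out it ran between -0.0302 and -0.0187 at 15 min, -0.0248 and 0.0273 at 30 min, and -0.0248 and -0.00396 for both times.

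Replicate numbers were shared between times. Deviations of same-numbered libraries correlated between -0.0492 and 0.18, and those of differently numbered libraries between -0.203 and 0.105. These ranges overlap, and the numbers were not taken as pairs. Between 0 and 15 min, however, same-numbered libraries gave 0.0446, 0.18 and 0.102, all above 0. With the replicate block 152, 58 and 0 members and 170, 75 and 0 clusters were called at 15 over 0, 30 over 0 and 30 over 15 min, and the ratio's exact permutation p was 0.25, 1 and 0.593 for 15 min, 30 min and both times. Leaving out clusters with a pseudogene gave 149 and 63 clusters at 15 and 30 min. Without the Gm33781 and Tcf7l1 clusters the share of reads in clusters differed by 0.232 points over both times (exact permutation p = 0.0238), and 1 library at 15 min, at 2.34%, lay closest to the highest untreated library, at 2.32%. Depth limits single members: 20.5% had enough reads to be tested.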

Other observations

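Single member regions outside the clusters described above also changed. The largest rise at 15 min was a window 15.8 kb from Gm46246 on chromosome 1, with 1.06, 2.91 and 2.36 CPM at 0 min, 8.83, 9.34 and 8.5 CPM at 15 min and 5.65, 6.34 and 7.11 CPM at 30 min. The 3 times do not overlap, and the log2 change was 2.11 ± 0.32 at 15 min (SE, edgeR adjusted p = 0.000163) and 1.62 ± 0.34 at 30 min (adjusted p = 0.0112, lost without 0 min replicate 1 or 30 min replicate 3). The largest fall at 15 min was in a window 43.8 kb from Gm26747 on chromosome 8, which had 8.5, 8.95 and 9.7 CPM at 0 min, 2, 2.29 and 2.67 CPM at 15 min and 5.28, 2.05 and 6.16 CPM at 30 min. Its untreated libraries were above all others, and the log2 change was -1.97 ± 0.34 at 15 min (adjusted p = 0.000653) and -1.02 ± 0.31 at 30 min (adjusted p = 0.0906). A window 25.1 kb from Lincred2 on chromosome 4 had 4.78, 4.92 and 3.41 CPM at 0 min, 12.8, 12 and 11.2 CPM at 15 min and 9.84, 8.39 and 10.7 CPM at 30 min. All doxycycline libraries were higher there (log2 1.44 ± 0.25 at 15 min, adjusted p = 0.000556).

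Other falls were called at 30 min alone. A window 25.6 kb from Anapc10, a subunit of the anaphase-promoting complex, had 7.62, 16.8 and 35.1 CPM at 0 min, 4.83, 6.48 and 14.8 CPM at 15 min and 4.37, 5.59 and 6.64 CPM at 30 min. Its untreated libraries were spread widely and 15 min overlapped 0 min. The fall at 30 min (log2 -1.81 ± 0.4, adjusted p = 0.0179) was lost without 0 min replicate 3 or any 1 of the 30 min libraries. A window 32.7 kb from Fabp6, an ileal bile acid binding protein gene, had 12.9, 14.1 and 13.1 CPM at 0 min, 10.7, 9.53 and 7.77 CPM at 15 min and 6.92, 7.45 and 4.74 CPM at 30 min. The 3 times do not overlap, and the log2 change at 30 min was -1.05 ± 0.23 (adjusted p = 0.018, lost without 0 min replicate 1, 30 min replicate 1 or 30 min replicate 3).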
